A study of Mus musculus with 4 samples.

Results

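SR proteins and heterogeneous nuclear ribonucleoproteins (hnRNPs) are the main families of RNA-binding proteins that choose splice sites. Their transcripts were taken by symbol, as every symbol that starts with Srsf and a digit or with Hnrnp, apart from 1 symbol not reported here. This gave 30 of the 24346 symbols in the files, 11 Srsf and 19 Hnrnp symbols, and 29 of them averaged 1 FPKM or more and were tested. Srsf12 was listed at 0 in all 4 libraries and was not tested. FPKM are fragments per kilobase of transcript, scaled to the mapped fragments of a library. All cells were MC38, a mouse colon carcinoma line. There were 2 libraries labelled KO, from MC38 cells with a knockout of Arid5a, an RNA-binding protein that stabilises inflammatory mRNAs, and 2 libraries labelled WT, from MC38 cells with no change named. The labels gave no agent, no time and no statement of how the knockout was made or from how many clones, and nothing said that the libraries of a group came from separate cultures. P-values therefore measure only the spread between these libraries.

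SR proteins carry RNA recognition motifs and a tail rich in arginine and serine. They bind enhancers in exons and help U1 and U2 small nuclear ribonucleoproteins (snRNPs) to find splice sites, and kinases of the SRPK and CLK families phosphorylate their tails. hnRNPs coat nascent transcripts, and many of them, such as the product of Hnrnpa1, act against SR proteins at the same exons. Members of both families limit their own amounts by splicing their mRNAs to forms that nonsense-mediated decay destroys. FPKM per gene do not separate such forms from coding mRNA.

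Arid5a itself had 2.16 and 1.77 FPKM in KO-labelled libraries, against 0.23 and 0.12 FPKM in WT-labelled libraries. Its log2 change was 1.33 ± 0.13 (SE, adjusted p = 0.0013, limma) and 2.93 with a pseudocount of 0.1, and it averaged over 1 FPKM only through the KO-labelled libraries. This runs against the labels, so higher and lower are given here by the deposited labels. None of 15 epithelial markers reached a mean of 1 FPKM in this carcinoma line, and Epcam, Cdx1, Cdx2, Lgr5 and Cldn7 were among those listed at 0 in all libraries. The 14 leukocyte markers listed summed to 2.14 and 1.84 FPKM in KO-labelled libraries, against 8.08 and 10.6 FPKM in WT-labelled libraries, with Cd68 and S100a8 alone above a mean of 1 FPKM and 8 markers at 0, among them Cd3e, Cd4 and Itgam. The 10 fibroblast and endothelial markers summed to 14.1 and 14.7 FPKM in KO-labelled libraries and to 16.4 and 15.0 FPKM in WT-labelled libraries, with Pdgfra, Pdgfrb, Col1a1 and Dcn above a mean of 1 FPKM and Kdr at 0. The part of these differences in the results on splicing genes was not tested, and in bulk RNA fewer cells of a type and less RNA per cell cannot be told apart. Depths estimated from low values were 9770000 and 10800000 fragments for the KO-labelled libraries and 14600000 and 11200000 for the WT-labelled ones.

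All 29 detected SR protein and hnRNP transcripts were abundant, averaging 10 FPKM or more. Hnrnpa2b1, whose products bind RNA in the nucleus and during transport, was the highest, at 779 and 731 FPKM in KO-labelled libraries, against 671 and 635 FPKM in WT-labelled libraries. Hnrnpf, Hnrnpab, Hnrnpk and Hnrnpu followed, each between 441 and 566 FPKM in every library. Neighbours in this order were close, and Hnrnpf lay above Hnrnpab in both KO-labelled libraries but below it in both WT-labelled libraries. Among SR proteins Srsf2 was the highest, at 273 and 286 FPKM in KO-labelled libraries and 252 and 247 FPKM in WT-labelled libraries, and Srsf3 followed, at 216 and 217 FPKM in KO-labelled libraries and 210 and 206 FPKM in WT-labelled libraries. The lowest detected members were Hnrnph3 and Srsf4, at 11.1 to 14.9 FPKM. Together the family transcripts summed to 5772 and 5628 FPKM in KO-labelled libraries, against 5471 and 5340 FPKM in WT-labelled libraries. As a share of each library's FPKM this was 0.90% and 0.89% in KO-labelled libraries and 0.91% and 0.88% in WT-labelled libraries, so the share overlapped between the groups while the sum did not.

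**Figure D1:**
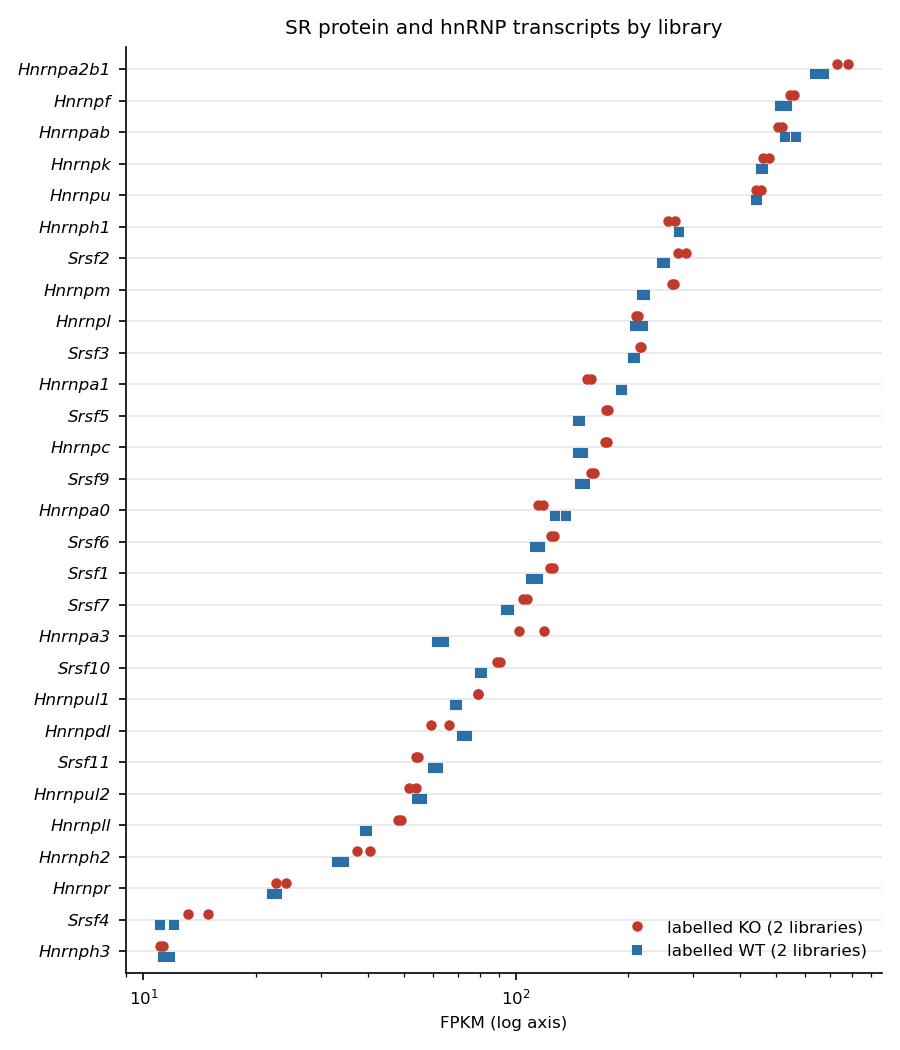
Level of each SR protein and hnRNP transcript in FPKM on a log axis, with 1 circle per library labelled KO and 1 square per library labelled WT. The detected members span 11.1 FPKM to 779 FPKM. The distance between the groups is small against this span, and on the log axis it is widest for Hnrnpa3.

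KO-labelled libraries were set against WT-labelled ones to ask how splicing factor transcripts differ with the Arid5a label. Of the 29 members tested, 14 rose and 4 fell in KO-labelled libraries, at an adjusted p under 0.05 over all 10827 genes tested, and 11 were not called. Calls were frequent in these libraries, with 47.6% of all tested genes called, 24.4% higher and 23.3% lower. The members' shares were 62.1% called, 48.3% higher and 13.8% lower. Because the members are abundant, they were also read against genes averaging 10 FPKM or more, of which 27.9% were higher and 26.3% lower. The median log2 change was 0.09 over the members and 0.01 over all tested genes. The groups did not overlap for 25 of 29 members, against 77.5% of all tested genes. Changes were small, and apart from Hnrnpa3 at 0.80 no called member differed by more than Hnrnpll at 0.29 on the log2 scale.

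The split depended on scaling. With each library rescaled to the same FPKM sum, 7 members were higher (24.1%) and 6 lower (20.7%), against 17.9% and 30.1% of all tested genes. The median log2 change was then 0.03 over the members and -0.06 over all tested genes. With 1 library left out, the members' median log2 change was 0.08 without KO replicate 1 or without WT replicate 2. It was 0.11 without KO replicate 2 or without WT replicate 1. Over all tested genes the median in these fits was 0.002 to 0.006. A total of 6 members, Hnrnpa3, Hnrnpc, Hnrnpll, Hnrnpm, Hnrnpul1 and Srsf5, were called higher in all 15 alternative settings. The replicate libraries of a group differed by a median of 0.03 (log2) over the members in those labelled KO and 0.04 in those labelled WT, with the widest gaps at Hnrnpa3 (0.22) and Srsf4 (0.11).

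**Figure D2:**
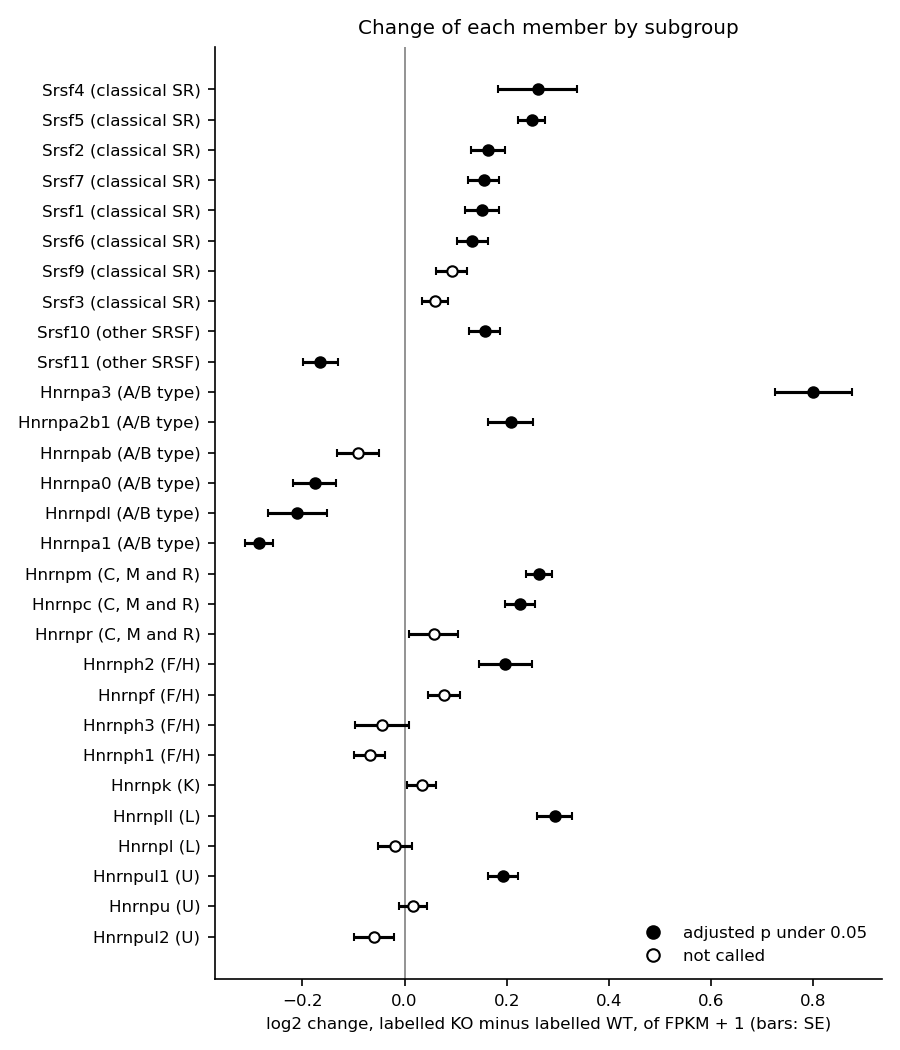
Log2 change of each tested member (KO-labelled minus WT-labelled libraries, of FPKM + 1), grouped by subgroup, with bars of 1 SE. Filled points are the 18 called members and open points the 11 not called. Hnrnpa3 lies far to the right at 0.80, and Hnrnpa1 farthest to the left at -0.28.

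Among the classical SR proteins 6 of 8 rose (75.0%) and 0 fell, against 24.4% of all tested genes higher and 23.3% lower. At an unadjusted p under 0.05 in limma 0 were lower too. Srsf3 and Srsf9 were not called. The median log2 change of these 8 was 0.15. Srsf5, an activator that binds enhancers in exons, had 177 and 175 FPKM in KO-labelled libraries, against 149 and 147 FPKM in WT-labelled libraries, a log2 change of 0.25 ± 0.03 (adjusted p = 0.00176, limma). Both KO-labelled libraries lay above both labelled WT, as they did for all 8 classical SR proteins. The groups did not overlap, in either direction, for 77.5% of all tested genes. Srsf2, which stays in nuclear speckles and activates exons, differed by 0.16 ± 0.03 (adjusted p = 0.0129). Srsf7, a zinc-knuckle SR protein that also acts in mRNA export, had 107 and 105 FPKM in KO-labelled libraries, against 94.4 and 95.8 FPKM in WT-labelled libraries (log2 change 0.15 ± 0.03, adjusted p = 0.0109). Srsf1, the archetype of the family and a proto-oncogene, had 126 and 124 FPKM in KO-labelled libraries, against 115 and 110 FPKM in WT-labelled libraries (log2 change 0.15 ± 0.03, adjusted p = 0.0158). Each of these gaps was wider than the gap between the replicates of a group. Srsf6, a close relative of Srsf4 and Srsf5, had 124 and 127 FPKM in KO-labelled libraries and 116 and 113 FPKM in WT-labelled libraries (log2 change 0.13 ± 0.03, adjusted p = 0.0191). Srsf4, the least abundant of the classical members, had 13.2 and 14.9 FPKM in KO-labelled libraries, against 12.1 and 11.1 FPKM in WT-labelled libraries. Its log2 change of 0.26 was the highest of the SR proteins, but its error was also the widest (± 0.08, adjusted p = 0.0412). Exons of Gm12992 overlap those of Srsf4 on the opposite strand. Gm12992 was listed at 17.5 and 17.7 FPKM in KO-labelled libraries, against 13.6 and 13.8 FPKM in WT-labelled libraries, above Srsf4 itself and higher in the same libraries. The library kit was stranded, but whether counting used strand is not given in the sources used here, so reads of Srsf4 and Gm12992 cannot be told apart. Srsf9, an SR protein with a short tail, had 162.6 and 159 FPKM in KO-labelled libraries and 153 and 148 FPKM in WT-labelled libraries (log2 change 0.09, adjusted p = 0.0548).

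The calls of Srsf1, Srsf2, Srsf4, Srsf6, Srsf7 and Srsf10 were lost with equal sums, at adjusted p of 0.0581 to 0.196, while that of Srsf5 was kept (adjusted p = 0.00615). Without WT replicate 2 the adjusted p was 0.0783 for Srsf1, 0.0677 for Srsf2, 0.182 for Srsf4, 0.0963 for Srsf6, 0.0623 for Srsf10 and 0.0792 for Srsf11. Without WT replicate 1 it was 0.0768 for Srsf4, 0.0511 for Srsf6 and 0.0596 for Srsf7. Without KO replicate 1 it was 0.0682 for Srsf1, and without KO replicate 2 it was 0.0516 for Srsf2, 0.147 for Srsf4, 0.08 for Srsf6 and 0.056 for Srsf11. Srsf5 was called with any 1 library left out. The call of Srsf4 was also lost with no filter on low values (adjusted p = 0.0753) and that of Srsf2 with quantile normalization (0.0733), while Srsf9 was called with quantile normalization (0.0424) and robust moderation (0.0445).

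The other Srsf symbols went in opposite directions. Srsf10, a splicing repressor when dephosphorylated, had 90.8 and 89.1 FPKM in KO-labelled libraries, against 81.2 and 79.9 FPKM in WT-labelled libraries (log2 change 0.16 ± 0.03, adjusted p = 0.0106). Srsf11, a nuclear protein that interacts with the U2 auxiliary factor, was the only SR protein that fell. It had 54.5 and 53.8 FPKM in KO-labelled libraries, against 59.8 and 61.9 FPKM in WT-labelled libraries (log2 change -0.16 ± 0.03, adjusted p = 0.0137). The ratio of Srsf10 to Srsf11 within a library, which no scaling of whole libraries can change, was 1.67 and 1.66 in KO-labelled libraries, against 1.36 and 1.29 in WT-labelled libraries. Over all SR proteins the FPKM summed to 1345 and 1351 in KO-labelled libraries, against 1242 and 1221 in WT-labelled libraries, or 0.211% and 0.215% of the library in KO-labelled libraries, against 0.207% and 0.200% in WT-labelled libraries.

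The hnRNPs were mixed: 7 of 19 rose (36.8%), 3 fell (15.8%) and 9 were not called, with a median log2 change of 0.03. The shares of all tested genes were 24.4% higher and 23.3% lower. The A/B-type members, which carry paired RNA recognition motifs, held all 3 that fell and the strongest change of either family. Hnrnpa3, which binds RNA during transport, had 119 and 102 FPKM in KO-labelled libraries, against 64.3 and 61.4 FPKM in WT-labelled libraries (log2 change 0.80 ± 0.07, adjusted p = 0.00123). Hnrnpa1, the best studied splicing silencer of the group, had 159 and 156 FPKM in KO-labelled libraries, against 191 and 193 FPKM in WT-labelled libraries (log2 change -0.28 ± 0.03, adjusted p = 0.00131). The groups were well apart in both genes, and the ratio of Hnrnpa3 to Hnrnpa1 was 0.75 and 0.66 in KO-labelled libraries and 0.34 and 0.32 in WT-labelled libraries.

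Both genes have near-identical copies elsewhere in the genome, and for each gene 1 copy was listed in the files at a higher level than the gene itself. GENCODE M21 transcripts with at least 95% identity over 200 bases or more were found for 11 members, and for 2 of these, Hnrnpa1 and Hnrnpa3, such a copy was listed in the files. Gm10052, a processed pseudogene on chromosome 9, is 100% identical to Hnrnpa1 over 960 bases. Gm5643, a processed pseudogene on chromosome X, is 98.7% identical over 955 bases. Gm6793, on chromosome 8, is 98.3% identical to Hnrnpa3 over 1476 bases and is annotated as protein-coding by GENCODE. The stretches below, read from GRCm38, show 90 bases that Hnrnpa1 (chr15:103242380-103242469, plus strand) shares with Gm10052 (chr9:123689520-123689609, minus strand) and Gm5643 (chrX:142298151-142298240, plus strand), and 90 bases that Hnrnpa3 (chr2:75661717-75661806, plus strand) shares with Gm6793 (chr8:112014744-112014833, minus strand). They are shown because fragments from them cannot be placed, or can be placed only by the bases in capitals, which mark the positions where Gm5643 and Gm6793 differ from the parent gene.
Hnrnpa1: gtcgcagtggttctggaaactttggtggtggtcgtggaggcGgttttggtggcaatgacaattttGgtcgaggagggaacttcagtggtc
Gm10052: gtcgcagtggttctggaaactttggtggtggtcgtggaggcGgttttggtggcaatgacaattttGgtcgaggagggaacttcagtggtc
Gm5643: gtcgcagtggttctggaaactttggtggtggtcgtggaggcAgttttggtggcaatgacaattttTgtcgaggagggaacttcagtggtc
Hnrnpa3: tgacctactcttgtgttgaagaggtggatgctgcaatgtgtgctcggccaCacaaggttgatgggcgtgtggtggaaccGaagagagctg
Gm6793: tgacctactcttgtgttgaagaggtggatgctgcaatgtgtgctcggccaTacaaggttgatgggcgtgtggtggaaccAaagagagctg

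Gm10052 was listed at 615 and 592 FPKM in KO-labelled libraries and at 609 and 591 FPKM in WT-labelled libraries, so the groups overlapped (log2 change 0.01 ± 0.03, adjusted p = 0.85). With quantile normalization Gm10052 was called lower (log2 change -0.11, adjusted p = 0.0258, limma). Gm5643 was listed at 9.47 and 22.1 FPKM in KO-labelled libraries and at 10.2 and 34.9 FPKM in WT-labelled libraries, a wider spread within than between groups. Added to its copies, Hnrnpa1 came to 784 and 769 FPKM in KO-labelled libraries, against 810 and 819 FPKM in WT-labelled libraries, and the call was lost (log2 change -0.07, adjusted p = 0.0669). Most of this sum was Gm10052, which overlapped between the groups, so the sum cannot show whether Hnrnpa1 itself fell. FPKM of transcripts of different lengths also do not add up as fragments do. The fall of Hnrnpa1 is uncertain, since how fragments were divided among the copies is not given in the sources used here. Gm6793 was listed at 1263 and 1205 FPKM in KO-labelled libraries, against 766 and 765 FPKM in WT-labelled libraries (log2 change 0.69 ± 0.03, adjusted p = 0.000182). Hnrnpa3 and Gm6793 together came to 1381 and 1307 FPKM in KO-labelled libraries, against 830 and 826 FPKM in WT-labelled libraries (log2 change 0.70, adjusted p = 0.000194). The gene and its copy were thus both higher in KO-labelled libraries, and which locus gave the fragments cannot be told apart. Without both genes, 13 of 27 members were higher and 3 lower.

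**Figure D3:**
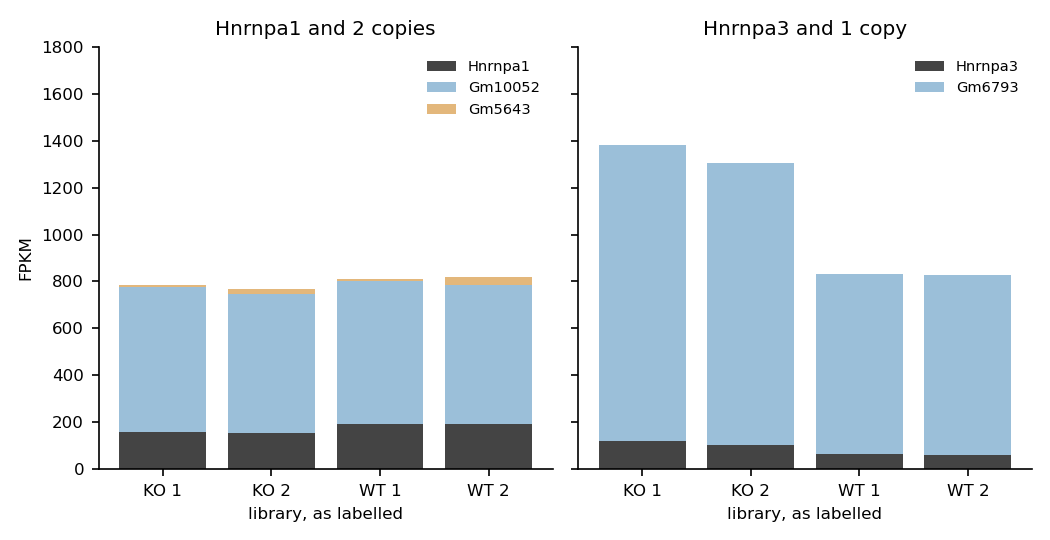
Stacked FPKM of Hnrnpa1 with its copies Gm10052 and Gm5643, and of Hnrnpa3 with its copy Gm6793, with 1 bar per library. The copies make up most of each bar, and the Hnrnpa3 bars are taller in both KO-labelled libraries (1381 and 1307 FPKM) than in both labelled WT (830 and 826 FPKM).

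Of the other A/B-type members, Hnrnpa2b1 rose by 0.21 ± 0.04 on the log2 scale (adjusted p = 0.0141). Hnrnpa0, which binds AU-rich mRNAs, had 115 and 118 FPKM in KO-labelled libraries, against 136 and 127 FPKM in WT-labelled libraries (log2 change -0.18 ± 0.04, adjusted p = 0.0221). Hnrnpdl, whose own mRNA is controlled through poison exons, had 66.3 and 59.3 FPKM in KO-labelled libraries, against 73.7 and 71.7 FPKM in WT-labelled libraries (log2 change -0.21 ± 0.06, adjusted p = 0.0337). For each of these 3 members the groups did not overlap, as for 77.5% of all tested genes. The adjusted p of Hnrnpa0 was 0.0902 without KO replicate 1, 0.0509 without KO replicate 2 and 0.0828 without WT replicate 1. That of Hnrnpdl was 0.0725 without KO replicate 2, 0.14 without WT replicate 1 and 0.0981 without WT replicate 2, and 0.0625 with no filter on low values. That of Hnrnpa2b1 was 0.0579 without KO replicate 1 and 0.0657 without WT replicate 2. Hnrnpab had 519 and 507 FPKM in KO-labelled libraries and 566 and 527 FPKM in WT-labelled libraries and was not called (adjusted p = 0.123), but it was lower with equal sums (adjusted p = 0.0374), with quantile normalization (adjusted p = 0.0298) and without WT replicate 2 (adjusted p = 0.041).

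Hnrnpm and Hnrnpc rose. Hnrnpm, which binds GU-rich RNA and acts in splicing changes of the epithelial to mesenchymal transition, had 266 and 263 FPKM in KO-labelled libraries, against 222 and 218 FPKM in WT-labelled libraries (log2 change 0.26 ± 0.03, adjusted p = 0.00135). Hnrnpc, which binds uridine tracts and measures the length of nascent RNA, had 176 and 173 FPKM in KO-labelled libraries, against 147 and 152 FPKM in WT-labelled libraries (log2 change 0.23 ± 0.03, adjusted p = 0.0034). In both genes the gap between the groups was wider than the gap between replicates. Hnrnpr, a relative of the mRNA transport factor SYNCRIP, had 24.1 and 22.7 FPKM in KO-labelled libraries and 22.1 and 22.8 FPKM in WT-labelled libraries, and the groups overlapped.

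In the L, F/H and U subgroups 1 member each rose, and it was not the most abundant of its subgroup. Hnrnpll, which represses variable exons of CD45 in lymphocytes, had 49.2 and 48.1 FPKM in KO-labelled libraries, against 39.3 and 39.7 FPKM in WT-labelled libraries (log2 change 0.29 ± 0.03, adjusted p = 0.00219). Its paralogue Hnrnpl, a repressor that binds CA repeats, had 211 and 213 FPKM in KO-labelled libraries and 210 and 220 FPKM in WT-labelled libraries, and overlapped. The ratio of Hnrnpll to Hnrnpl was 0.23 and 0.23 in KO-labelled libraries, against 0.19 and 0.18 in WT-labelled libraries. Hnrnph2, an X-linked binder of guanine tracts, had 40.5 and 37.4 FPKM in KO-labelled libraries, against 34.6 and 33.1 FPKM in WT-labelled libraries (log2 change 0.20 ± 0.05, adjusted p = 0.029). Its more abundant relatives were not called: Hnrnph1 had 267 and 256 FPKM in KO-labelled libraries and 275 and 274 FPKM in WT-labelled libraries, and Hnrnpf had 559 and 546 FPKM in KO-labelled libraries and 536 and 512 FPKM in WT-labelled libraries. The ratio of Hnrnph2 to Hnrnph1 was 0.15 and 0.15 in KO-labelled libraries, against 0.13 and 0.12 in WT-labelled libraries. The call of Hnrnph2 was lost with equal sums (adjusted p = 0.0883), without KO replicate 1 (0.0984), without WT replicate 1 (0.069) and without WT replicate 2 (0.137), and Hnrnph1 was called lower with equal sums and with quantile normalization (adjusted p = 0.0168 in each). Hnrnph3, the least abundant of this subgroup, was not called, at 11.1 and 11.3 FPKM in KO-labelled libraries and 11.8 and 11.3 FPKM in WT-labelled libraries.

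Hnrnpul1, a relative of Hnrnpu that also acts in the response to DNA breaks, had 79.0 and 79.0 FPKM in KO-labelled libraries, against 68.6 and 69.4 FPKM in WT-labelled libraries (log2 change 0.19 ± 0.03, adjusted p = 0.00507). Hnrnpul2 had 53.9 and 51.7 FPKM in KO-labelled libraries and 56.0 and 54.2 FPKM in WT-labelled libraries and was not called. The ratio of Hnrnpul1 to Hnrnpul2 was 1.46 and 1.53 in KO-labelled libraries, against 1.22 and 1.28 in WT-labelled libraries. Hnrnpu, a scaffold protein that binds chromatin and RNA, had 456 and 441 FPKM in KO-labelled libraries and 444 and 443 FPKM in WT-labelled libraries. Hnrnpk, a KH-domain protein that binds cytosine-rich tracts, had 478 and 461 FPKM in KO-labelled libraries and 462 and 455 FPKM in WT-labelled libraries. In both the groups overlapped, and neither was called. Over all hnRNPs the FPKM summed to 4427 and 4277 in KO-labelled libraries, against 4229 and 4120 in WT-labelled libraries. As shares of the library these overlapped, at 0.694% and 0.680% in KO-labelled libraries and 0.704% and 0.676% in WT-labelled libraries.

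Tested genes of some chromosomes had medians away from 0, and 10 members lie on the 5 chromosomes farthest from it. On chromosome 2 the median log2 change of 864 tested genes was 0.23, with 54.6% called higher and 9.49% lower. Chromosome 12 had a median of 0.15, chromosome 13 of -0.13, chromosome 15 of -0.11 and chromosome 11 of -0.10. Hnrnpa3 (chr2:75659261-75669407) and Srsf6 (chr2:162931528-162937121) lie on chromosome 2. With the median change of its chromosome removed from each gene, an alternative chosen after seeing the data, Hnrnpa3 was still higher (log2 change 0.57, adjusted p = 0.00345), while Srsf6 stood at -0.10 and was not called (adjusted p = 0.0522). Hnrnpa0 on chromosome 13 was also no longer called, at -0.05 (adjusted p = 0.439), while Hnrnpa1 on chromosome 15 was still lower (log2 change -0.17, adjusted p = 0.00818). Srsf5 on chromosome 12 was still higher, by 0.10 (adjusted p = 0.0303), and Srsf1 and Srsf2 on chromosome 11 stood at 0.24 and 0.26. Hnrnpf and Hnrnpk were called higher in this setting (adjusted p = 0.0292 and 0.00731). In all, 15 members were higher and 3 lower, against 22.1% of all tested genes higher and 22.8% lower.

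The other way tried, which centred the log2 levels of each chromosome on their median in each library, took away amounts that differ from the median change. It took -0.19 from Hnrnpa1 on chromosome 15 and -0.11 from Srsf3 on chromosome 17, whose median change was 0.01. With it 17 members were higher and 3 lower, against 24.2% and 19.6% of all tested genes. Srsf3 and Srsf9 were called higher, Srsf6 was called lower (-0.11, adjusted p = 0.0492) and Hnrnpa1 was not called (-0.09, adjusted p = 0.056), so these calls depended on how chromosome shifts were removed. The part of the chromosome shifts in the members' changes was not tested.

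**Figure D4:**
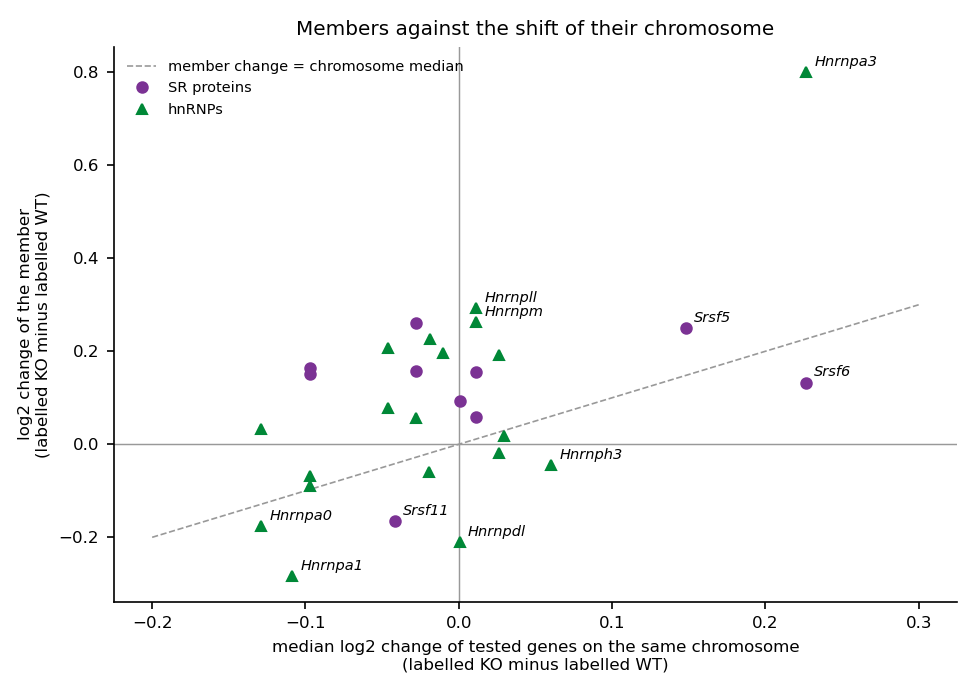
Log2 change of each member (y axis) against the median log2 change of the tested genes on its chromosome (x axis), both as KO-labelled minus WT-labelled libraries, with SR proteins and hnRNPs marked apart and a dashed line where the values are equal. Hnrnpa3 and Srsf6 share the chromosome with the highest median (0.23), with Hnrnpa3 far above the line and Srsf6 below it.

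Genes that act with these families were read from 5 lists, each set beside the shares of all tested genes, 24.4% higher and 23.3% lower. Of 13 tested SR protein kinases, phosphatase partners and nuclear import receptors, 3 were higher (23.1%) and 1 lower (7.69%), with a median log2 change of 0.09. The share that was higher was near that of all tested genes, and 30.8% were called in all, against 47.6%. Clk3, a nuclear kinase of SR proteins, had 26.5 and 26.3 FPKM in KO-labelled libraries, against 18.6 and 19.9 FPKM in WT-labelled libraries (log2 change 0.44 ± 0.05, adjusted p = 0.00199). Its relative Clk4 had 20.8 and 20.7 FPKM in KO-labelled libraries, against 23.6 and 25.5 FPKM in WT-labelled libraries (log2 change -0.23 ± 0.05, adjusted p = 0.0175). The nuclear import receptor Tnpo2 rose by 0.19 ± 0.03 (adjusted p = 0.00593) and the phosphatase subunit Ppp1cc by 0.10 ± 0.03 (adjusted p = 0.0335). The import receptors Tnpo1 (log2 change 0.08, adjusted p = 0.0959) and Tnpo3 (0.04, adjusted p = 0.494) were not called. The calls of Clk4 and Ppp1cc were lost without KO replicate 1 (adjusted p = 0.0597 and 0.121), without KO replicate 2 (0.0654 and 0.0754) and without WT replicate 2 (0.0876 and 0.119), and that of Ppp1cc also without WT replicate 1 (0.112) and with equal sums (0.446). With the chromosome's median change removed neither Clk4 (log2 change -0.14, adjusted p = 0.0859) nor Ppp1cc (0.08, adjusted p = 0.058) was called.

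Of 26 SR-related proteins, which are not Srsf members, 9 were higher and 0 lower, with a median of 0.07. There were 0 lower also at an unadjusted p under 0.05 in limma. The share of 34.6% higher stands beside 24.4% of all tested genes. In all, 34.6% were called, against 47.6% of all tested genes. Rsrc2 had 48.8 and 45.2 FPKM in KO-labelled libraries, against 38.2 and 38.7 FPKM in WT-labelled libraries (log2 change 0.28 ± 0.05, adjusted p = 0.00683). Rnps1, a component of a complex deposited at exon junctions, had 204 and 201 FPKM in KO-labelled libraries, against 176 and 182 FPKM in WT-labelled libraries (log2 change 0.18 ± 0.03, adjusted p = 0.00752). Rbm39, a relative of the U2 auxiliary factor, had a log2 change of 0.19, but it lies on chromosome 2 and stood at -0.05 with the chromosome's median change removed. Scaf4 rose by 0.18 ± 0.05 (adjusted p = 0.037) and was not called with equal sums (0.156) or with no filter on low values (0.0558). It was also not called without any 1 of the libraries, where its log2 change was 0.14 to 0.21. With equal sums 3 of the 26 were higher and 0 lower, beside 17.9% and 30.1% of all tested genes. Fewer genes of the list, and fewer of all tested genes, were called with any 1 library left out.

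Of 33 tested splicing regulators outside both families, 13 were higher (39.4%) and 4 lower (12.1%), with a median of 0.06. Outside chromosome 2, 11 of 31 were higher (35.5%) and 4 lower (12.9%), with a median of 0.03. Khdrbs3, a STAR-family splicing regulator, stood far below the rest, at 1.44 and 1.19 FPKM in KO-labelled libraries, against 7.76 and 8.51 FPKM in WT-labelled libraries (log2 change -1.98 ± 0.09, adjusted p = 0.000197). Cirbp, an RNA-binding protein induced by mild cold, had 13.8 and 11.7 FPKM in KO-labelled libraries, against 6.83 and 6.72 FPKM in WT-labelled libraries (log2 change 0.82 ± 0.09, adjusted p = 0.00173). In both the groups were far apart. Raly, an hnRNP-like protein related to Hnrnpc, had 288 and 284 FPKM in KO-labelled libraries, against 218 and 221 FPKM in WT-labelled libraries (log2 change 0.38 ± 0.03, adjusted p = 0.000467), and lies on chromosome 2. With the chromosome's median change removed Raly was at 0.15 (adjusted p = 0.00726). Tia1, which binds uridine-rich introns, rose by 0.38 ± 0.08 (adjusted p = 0.013), with the call lost without KO replicate 1 (0.0573) and without WT replicate 2 (0.0617). The other 3 that fell were Ptbp2, Mbnl2 and Pcbp2, with log2 changes of -0.20, -0.13 and -0.12. With equal sums 11 of the 33 were lower, beside 30.1% of all tested genes. With the chromosome's median change removed Pcbp2 stood at -0.01, and with centred levels at 0.07. Ptbp2 was called in neither setting (log2 change -0.16 in each, adjusted p = 0.0880 and 0.0917). Mbnl2 was still lower with the median change removed (-0.12, adjusted p = 0.0404) but was not called with centred levels (-0.16, adjusted p = 0.0590). The count of 4 lower was 1 without KO replicate 1, without KO replicate 2 or without WT replicate 2, and 2 without WT replicate 1.

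Of 34 core proteins of the snRNPs and the U2 branch point complex, 9 were higher (26.5%) and 6 lower (17.6%), with a median of 0.05. All 4 on chromosome 2 were higher, among them Snrnp200, the helicase that unwinds U4 from U6, at 63.9 and 64.7 FPKM in KO-labelled libraries, against 43.2 and 44.0 FPKM in WT-labelled libraries (log2 change 0.55 ± 0.03, adjusted p = 0.000343). Snrpb, a protein of the Sm ring, rose by 0.47 ± 0.03 (adjusted p = 0.000447), and Snrpb2, a U2 protein, by 0.38 ± 0.05 (adjusted p = 0.00282). With the chromosome's median change removed Snrnp200 stood at 0.32 and Snrpb at 0.23, Snrpb2 at 0.15 (adjusted p = 0.0517) was not called, and Prpf6, the other gene of the list there, stood at -0.03. Prpf4, a U4/U6 protein, fell, at 12.9 and 12.8 FPKM in KO-labelled libraries, against 16.33 and 16.97 FPKM in WT-labelled libraries (log2 change -0.35 ± 0.05, adjusted p = 0.00366). On the other chromosomes 5 of 30 were higher and 6 lower, with a median of 0.02.

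Of 16 nonsense-mediated decay factors, 3 were higher (18.8%) and 4 lower, near the shares of all tested genes, with a median of -0.01. Dhx34, a helicase of this pathway, had 6.81 and 6.45 FPKM in KO-labelled libraries, against 9.88 and 11.2 FPKM in WT-labelled libraries (log2 change -0.59 ± 0.08, adjusted p = 0.00314). Upf1, the central helicase, had 63.6 and 64.6 FPKM in KO-labelled libraries, against 54.7 and 54.6 FPKM in WT-labelled libraries (log2 change 0.23 ± 0.03, adjusted p = 0.0036). The groups did not overlap for either helicase, as for 77.5% of all tested genes. Magoh, of the exon junction complex, rose by 0.34 ± 0.03 (adjusted p = 0.0013). Upf3a had a log2 change of -0.23 ± 0.05 (adjusted p = 0.0115), lost without WT replicate 2 (adjusted p = 0.0674), where 2 genes of the list were lower.

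**Figure D5:**
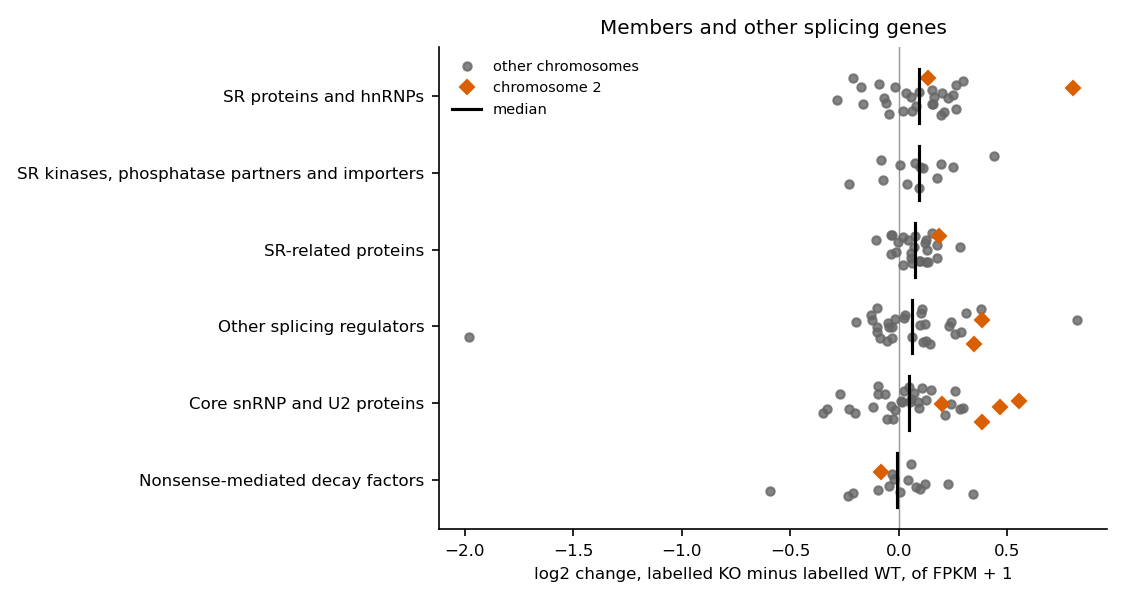
Log2 change of each tested gene (KO-labelled minus WT-labelled libraries, of FPKM + 1) in the member families and the 5 lists, with diamonds for genes on chromosome 2 and a black bar at each median. SR proteins and hnRNPs share 1 row, with a median of 0.09. The list medians lie between -0.01 for the decay factors and 0.09 for the kinases, phosphatase partners and import receptors. Khdrbs3 at -1.98 is the point farthest from 0.

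The promoters of members were read from RefSeq (GRCm38.p6) for 28 of the 30 symbols, as the 250 bases before the annotated start. The motif GGGCGG, the GC box, was found on either strand in 22 of 28 members (78.6%), against 32.7% of 32851 promoters. CCAAT was found in 15 members (53.6%), against 33.8%. TATAAA was found in 3 members, Hnrnpm, Srsf2 and Srsf3 (10.7%, against 12.4%), and CACGTG in Hnrnpa3 alone (3.57%, against 6.02%). Each motif was counted separately, also where matches share bases. The 32851 promoters were not matched to the members by level, so the shares are not a comparison with equally abundant genes. The 4 promoters below, printed with motif matches on either strand in capitals, belong to the members with the largest called change in each direction in each family, among those with a RefSeq start near the GENCODE start and no copy in the files. Srsf4 (chr4:131873387-131873636, plus strand) rose and has 3 GC boxes, Srsf11 (chr3:158036607-158036856, minus strand) fell and has 1, Hnrnpc (chr14:52104022-52104271, minus strand) rose and has 4 CCAAT matches, and Hnrnpa0 (chr13:58128557-58128806, minus strand) fell and has 1 CCAAT match and 2 GC boxes.
Srsf4: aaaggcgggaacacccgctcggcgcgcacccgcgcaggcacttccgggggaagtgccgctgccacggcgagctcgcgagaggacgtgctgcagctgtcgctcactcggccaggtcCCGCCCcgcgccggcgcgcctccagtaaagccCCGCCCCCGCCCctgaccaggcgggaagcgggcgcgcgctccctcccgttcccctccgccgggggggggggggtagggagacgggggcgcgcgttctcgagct
Srsf11: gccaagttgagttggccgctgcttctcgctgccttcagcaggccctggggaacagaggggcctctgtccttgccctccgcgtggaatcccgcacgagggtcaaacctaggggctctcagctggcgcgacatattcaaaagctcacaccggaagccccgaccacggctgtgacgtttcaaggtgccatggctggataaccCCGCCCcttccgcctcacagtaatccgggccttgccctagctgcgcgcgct
Hnrnpc: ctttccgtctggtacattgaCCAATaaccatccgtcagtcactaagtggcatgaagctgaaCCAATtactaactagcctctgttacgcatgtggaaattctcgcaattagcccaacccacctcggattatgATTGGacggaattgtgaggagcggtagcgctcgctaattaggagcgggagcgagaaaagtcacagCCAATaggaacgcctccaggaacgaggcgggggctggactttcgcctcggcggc
Hnrnpa0: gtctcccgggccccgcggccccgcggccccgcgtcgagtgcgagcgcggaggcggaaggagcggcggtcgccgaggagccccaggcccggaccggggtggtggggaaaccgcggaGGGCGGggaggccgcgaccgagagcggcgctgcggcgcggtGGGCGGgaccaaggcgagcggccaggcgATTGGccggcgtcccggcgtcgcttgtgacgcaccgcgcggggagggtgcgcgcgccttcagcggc
The GC content of these stretches was 77.2% for Srsf4, 63.6% for Srsf11, 52.8% for Hnrnpc and 81.2% for Hnrnpa0. A match is a description of the letters and no evidence of binding.

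Counting could also mix members with genes that overlap them. Exons of 6 members overlap exons of listed genes on the opposite strand, Hnrnpab with Phykpl, Hnrnph3 with Rufy2, Hnrnpk with Rmi1, Hnrnpu with Cox20, Srsf2 with Mettl23 and Mfsd11, and Srsf4 with Gm12992. The overlapping genes other than Gm12992 were listed at 2.23 to 55.5 FPKM, each below its member. Hnrnpm overlaps March2 on the same strand, which was listed at 8.63 and 7.39 FPKM in KO-labelled libraries and 10.1 and 10.1 FPKM in WT-labelled libraries.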

How the data were processed

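RNA of MC38 cells was sequenced with a stranded poly(A) mRNA kit, per the labels' protocols, in 2 libraries labelled KO and 2 labelled WT. The authors deposited FPKM values for 24346 symbols per library. Cufflinks 2.2.1, TopHat2 2.0.13 with Bowtie2 2.2.3, SAMtools 0.1.19 and the build mm10 are named in the submitters' processing notes, and settings, annotation and strand handling are not given in the sources used here. FPKM corrects for length and depth, but very abundant transcripts lower the values of all others, and fragments shared by near-identical genes are divided by an unstated rule.

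Values were tested as log2(FPKM + 1) for the 10827 genes averaging 1 FPKM or more, with limma 3.58.1 in R 4.3.3 (lmFit and eBayes with a trend, no block, two-sided, Benjamini-Hochberg over all tested genes, called under 0.05). Changes are libraries labelled KO minus libraries labelled WT on that scale, which understates low genes. The families and lists were chosen with earlier results of these data known. Any member could be named, with up to 4 called genes of largest change per list and others where a count was 5 or fewer. A symbol that matches the pattern is not reported here. Subgroups and lists were described by counts and medians, with no test of their own. Coordinates are GENCODE M21 on GRCm38, and copies were found with blastn 2.17.0. Depth was estimated from low FPKM values, in which 90.8% to 91.9% of ratios to WT replicate 1 were fractions of whole numbers no higher than 6 to a tolerance of 1%, and from the lengths of single-transcript genes. It is approximate, and counts per gene were not recovered, because Cufflinks sums isoforms of different lengths. The alternatives changed the pseudocount, filter, scaling, moderation, block and chromosome centring, left out each library in turn or, chosen after seeing the data, added copies to the parent gene or removed the median change of each chromosome.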

Additional observations from a re-analysis of the deposited data

How the results depend on the processing

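Directions of the called members held under the 15 alternatives, apart from Srsf6, which was -0.11 (log2) with chromosomes centred on their level medians and -0.099 with the median change of the chromosome removed. With equal sums 7 of 29 members and 3 of 26 SR-related genes were higher, beside 17.9% of all tested genes. In that setting 3 of 13 kinases or partners and 11 of 33 other regulators were lower, beside 30.1% of all tested genes. With chromosomes centred 0 kinases or partners and 1 other regulator were lower, beside 19.6% of all tested genes. With the median change removed 0 kinases or partners were lower, beside 22.8%. When each library was left out in turn, all tested genes gave 1666 to 2007 higher and 1550 to 1985 lower calls, members 7 to 11 higher and 1 to 3 lower, SR-related genes 3 to 4 higher, kinases and partners 0 to 1 lower, other regulators 1 to 2 lower and decay factors 2 to 3 lower, with fewer samples in each fit. The signs of some small changes that were not called turned with scaling. With equal sums Hnrnpk was -0.034, Hnrnpr -0.0070, Hnrnpu -0.050, Srsf3 -0.0071 and Gm10052 -0.059. With quantile normalization Hnrnpk was -0.034, Hnrnpu -0.076 and Gm10052 -0.11, and Gm10052 was then called lower (adjusted p = 0.0258, limma). With chromosomes centred Hnrnpab was 0.062, Hnrnph1 0.084, Hnrnpu -0.0080 and Rbm39, which was called before, -0.058. With the median change removed Hnrnpab was 0.0027, Hnrnph1 0.025, Hnrnpu -0.0091 and Rbm39 -0.046. With 1 library left out, Hnrnpu ranged over -0.0072 to 0.041, Hnrnpl -0.054 to 0.017, Gm10052 -0.020 to 0.036 and Gm5643 -1.21 to 0.48. Beyond the construction of each alternative, the cause was not tested.

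With the replicate number as a block, 13 members were higher and 4 lower, and 2369 of all tested genes were higher and 2304 lower. Srsf4 lost its call (adjusted p = 0.0835), as did Ppp1cc (0.0513) and Scaf4 (0.0691). Same-numbered libraries deviated together only weakly (r = 0.138 over 10827 genes, which are not independent), and the labels do not say that a number marks a shared batch. Depth was not separated from other sources of spread between replicates.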
